A study of Mus musculus with 3 samples.

Results

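The forkhead genes Foxf1, Foxc2 and Foxl1 on mouse chromosome 8 and Foxq1, Foxf2 and Foxc1 on chromosome 13 were examined for regions bound by the T-box transcription factor TBX5 in the fetal lung. A peak was counted at a gene when its summit lay inside the gene, or when the nearest end of any protein-coding gene was an end of that gene and lay within 100 kb. By this rule 26 of the 28381 peaks in the deposited list belonged to the 6 genes, 17 on chromosome 8 and 9 on chromosome 13. TBX5 chromatin immunoprecipitation and sequencing (ChIP-seq) had been made from E14.5 whole lungs of the outbred CD-1 strain, with 2 ChIP libraries, each from 1 lung, and 1 input library. The titles of all 3 libraries name lung, while the source field of 2 of them (ChIP library 2 and the input) names heart. The libraries are represented by 1 list of peaks in build mm10, so the libraries give no spread, their depth is unknown, and no condition was compared.

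Forkhead proteins are transcription factors that bind DNA through a winged-helix domain. Foxf1 is made in the mesenchyme of the lung and gut, where hedgehog ligand from the epithelium induces it, and it is needed for lung mesenchyme and lung vessels. Foxf2 is its paralogue, and Foxl1 is a further hedgehog-responsive factor, best known from the mesenchyme beneath the gut epithelium. Foxc1 and Foxc2 are paralogues that act in heart, vessel, lymphatic and skeletal development, and Foxq1 is known for its part in hair structure, from the satin mouse mutant. The genes stand in a pair of clusters that arose by duplication of an ancestral cluster, and the genes of the interferon regulatory factors Irf8 and Irf4 lie on the lower-coordinate side of the clusters on chromosomes 8 and 13.

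Start sites covered by peaks were read from RefSeq promoter sequences (GRCm38.p6, the assembly of mm10), in which Foxf2 and Foxc1 were matched among the 6 genes, together with Fendrr, a long noncoding RNA gene on the minus strand that begins just below Foxf1. The 250 bases before each start are shown because they are the promoters in these clusters at which a peak and a known start can be placed on the same sequence. Each is written 5′ to 3′ on the strand of its gene, and capitals mark the letters TGTTTAC, a forkhead core, on either strand.
Fendrr, chr8:121083111-121083360, minus strand: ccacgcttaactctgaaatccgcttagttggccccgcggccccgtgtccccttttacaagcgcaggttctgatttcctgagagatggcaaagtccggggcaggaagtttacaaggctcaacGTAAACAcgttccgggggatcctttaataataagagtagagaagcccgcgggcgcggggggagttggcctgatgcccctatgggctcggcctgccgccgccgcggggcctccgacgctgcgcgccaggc
Foxf2, chr13:31625566-31625815, plus strand: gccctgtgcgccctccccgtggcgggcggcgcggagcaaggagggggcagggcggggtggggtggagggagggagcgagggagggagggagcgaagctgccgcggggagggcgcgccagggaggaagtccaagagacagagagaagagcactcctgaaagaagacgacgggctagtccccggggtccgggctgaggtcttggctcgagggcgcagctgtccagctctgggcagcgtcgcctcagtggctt
Foxc1, chr13:31806396-31806645, plus strand: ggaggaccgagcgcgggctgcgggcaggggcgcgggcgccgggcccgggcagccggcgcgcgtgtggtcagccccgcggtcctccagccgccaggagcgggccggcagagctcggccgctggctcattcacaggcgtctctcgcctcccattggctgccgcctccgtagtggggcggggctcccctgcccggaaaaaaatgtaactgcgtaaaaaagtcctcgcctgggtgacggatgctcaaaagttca

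The 250 bases of Fendrr and of Foxf2 lay wholly within a peak, and 100 of the 250 bases of Foxc1 did. The summit stood 77 bp before the start of Fendrr, 55 bp before that of Foxf2 and 58 bp after that of Foxc1. G and C made up 62% of the Fendrr bases, 71.6% of those of Foxf2 and 70.8% of those of Foxc1. The T-box core AGGTGT, searched with its reverse complement over the windows from 250 bases before to 50 after the start, was in none of these 3 windows, and 13.7% of all 32851 promoter windows held it. The overlapping letters GGTGTG (19% of windows) and GGTGTGA (3.98%) were absent from them too. The forkhead core TGTTTAC, added after the sequences had been seen, occurred once, in the Fendrr window, with its first base 129 bp before the start, and in 3.65% of all windows.

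Among the 6 genes, TBX5 peaks were concentrated at Foxf1, Foxl1 and Foxf2. Foxf1 had 9 peaks, Foxl1 8, Foxf2 6, Foxc1 2 and Foxq1 1, and Foxc2 had 0. Thus 5 of the 6 genes (83.3%) had a peak, where 39.8% of the 21631 protein-coding genes did. Strong peaks, meaning the 5000 of the list with the highest −log10 q (21.3 or more), were at Foxf1 (2), Foxl1 (3) and Foxf2 (3), so that 3 of the 6 genes (50%) had such a peak, where 10.9% of all protein-coding genes did. Foxc1 and Foxq1 had peaks but no strong peak. These shares were not scaled by territory, meaning all bases at which a summit would count towards a gene, and the genes were chosen with earlier results of this list known.

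Of the 26 peaks, 8 were strong (30.8%, exact 95% binomial interval 14.3 to 51.8%), and the share over all peaks assigned to a protein-coding gene, 16.4%, lay inside that interval. The same number, 8 of 26, had a fold enrichment of at least 10, against 19.4% of assigned peaks. The fold enrichment is the authors' value for the ratio of ChIP signal to local background at the summit, and it served here only to describe and order peaks of this list. It ran from 4.38 to 39.3 over the 26 peaks, with a median of 7.24, where the median of assigned peaks was 6.14. The 8 strong peaks had folds from 12.1 up, and the other 18 had folds up to 9.45, so the strong peaks were also the highest by fold. Strong peaks were 474 to 641 bp wide (median 508 bp) and the others 189 to 677 bp (median 284 bp).

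**Figure D1:**
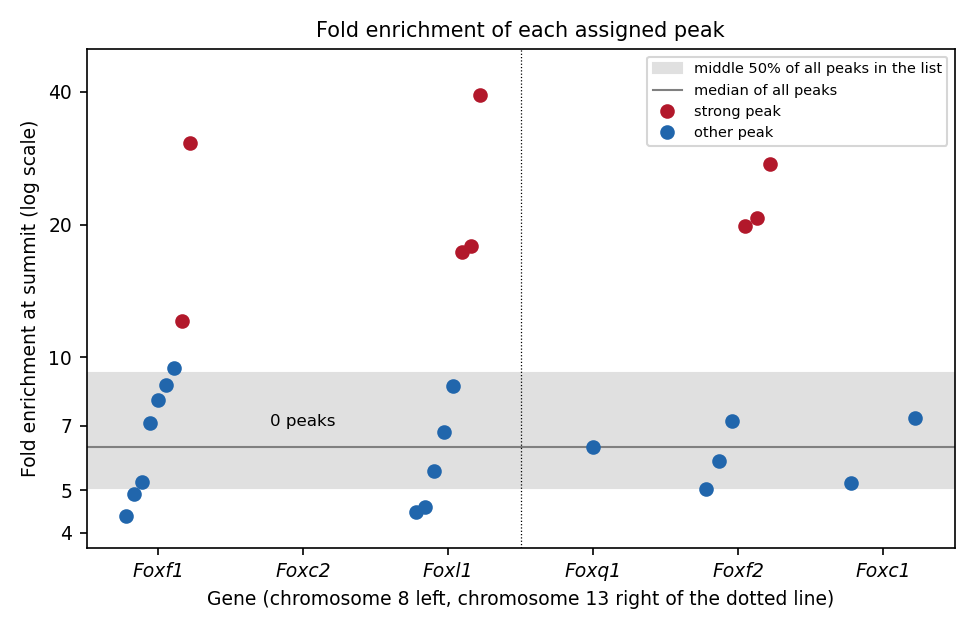
Fold enrichment at the summit (log axis) of each peak assigned to the 6 genes, chromosome 8 on the left and chromosome 13 on the right, with strong peaks in red, other peaks in blue and the middle 50% of all peaks in the list shaded. Foxf1, Foxl1 and Foxf2 each held peaks of at least 12.1-fold, while the 3 peaks of Foxq1 and Foxc1 lay between 5.18 and 7.30-fold.

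Foxl1, at chr8:121127685-121130644, held the strongest peak of the group. This peak, at chr8:121127328-121127968, reached 39.3-fold and a −log10 q of 152, rank 130 in the list of 28381. Its summit lay 147 bp below the first annotated base of Foxl1. A second strong peak, at chr8:121126613-121127086, lay 0.711 kb further below it, 858 bp from the gene, with 17.9-fold and a −log10 q of 45.5. The pair forms a doublet at the lower end of the gene, and the RefSeq gene table gives no strand by which to say that this end is the start. The third, at chr8:121140611-121141114, lay 10.3 kb above the last base of Foxl1, with 17.3-fold and a −log10 q of 64.1. The other 5 Foxl1 peaks lay 21.9, 33.6, 44.6, 69.4 and 70.6 kb above the gene, with folds of 6.77, 4.46, 4.57, 5.53 and 8.63. None of these 5 exceeded the upper quartile of the list, 9.22-fold. The peak 69.4 kb away lay 6 bp from an end of the long noncoding RNA gene 5033426O07Rik. Only 88 protein-coding genes (0.407%) had a peak with a higher −log10 q than Foxl1.

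Foxf1, at chr8:121084386-121088154, differed from Foxl1 in where its strong peaks lay. Both were far below the gene. The stronger, at chr8:120993665-120994162, was 90.5 kb from Foxf1 and had a −log10 q of 96.4, rank 450 in the list, with 30.7-fold. The other, at chr8:121002826-121003324, was 81.2 kb away, with 12.1-fold and a −log10 q of 25. A weaker peak of 7.11-fold stood 0.707 kb above it, and a peak of 4.89-fold lay 99.2 kb from the gene, so that 4 of the 9 Foxf1 peaks fell in the stretch from 80.5 to 99.2 kb below it. These 4 lay 12.6 to 31.3 kb from an end of the long noncoding RNA gene Gm33579, nearer than to Foxf1. For all 9 the nearest other protein-coding gene was Mthfsd.

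The remaining 5 Foxf1 peaks lay within 11 kb of the gene. The peak at chr8:121083896-121084572 covered the first base of Foxf1, with its summit 94 bp below that base, 8.01-fold and a −log10 q of 20.6. That value is rank 5286, just outside the 5000 strong peaks. The peak at chr8:121083047-121083374 had 9.45-fold and lay 1.10 kb from it, and it is the peak on the Fendrr promoter shown above. Peaks of 4.38-fold and 8.64-fold lay inside Fendrr, 4.89 and 11 kb from Foxf1. The last, of 5.21-fold, lay 1.63 kb above Foxf1 and 1.84 kb from Mthfsd, a gene of folate metabolism and its assignment rests on that small difference. When peaks were assigned among all annotated genes, noncoding ones included, Foxf1 had 2 peaks and Foxl1 had 3.

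Foxc2, at chr8:121116171-121118895, had no peak, but it stands between Mthfsd and Foxl1 and its territory was 11 kb. A count of 0 over that stretch has an exact 95% Poisson interval up to 3.69 peaks, or up to 33.5 per 100 kb, so the list cannot set its density apart from that of its neighbours. The doublet below Foxl1 lay 7.93 and 8.64 kb from Foxc2 and was the nearest to it. Mthfsd had 0 peaks in a territory of 22.4 kb.

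On chromosome 13, Foxf2 at chr13:31625816-31631406 carried 6 of the 9 peaks and all 3 strong ones. The strongest, at chr13:31632107-31632743, lay 1.15 kb above its last base, with 27.5-fold and a −log10 q of 77.4 (rank 736). A second, at chr13:31668000-31668634, lay 37 kb above the gene (20.7-fold, −log10 q 49.5). The third, at chr13:31618835-31619347, lay 6.67 kb below the start (19.9-fold, −log10 q 54.6). Since Foxf2 is on the plus strand, the strong peaks flank the gene, with 2 downstream and 1 upstream. The promoter peak shown above, at chr13:31625517-31625937, had 5.81-fold and a −log10 q of 8.65, and a neighbour at chr13:31624970-31625216 had 7.17-fold, 770 bp before the start. A peak of 5.02-fold lay 5.5 kb before it.

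Foxc1, at chr13:31806646-31810635, had 2 peaks. The peak at chr13:31806546-31806846 covered its start, with 7.30-fold and a −log10 q of 12.5, and its summit was the only summit of the 26 that lay inside a member gene. The other lay 8.45 kb before the start, with 5.18-fold. Foxq1, at chr13:31558170-31560976, had its single peak 99.2 kb below the gene at chr13:31458845-31459231, with 6.27-fold, the median of the list. Its count rested on this peak, which lay close to the limit of 100 kb. Other peaks near the limit bore on the counts of Foxf1 and Foxl1. The Foxq1 peak and a Foxf1 peak of 4.89-fold stood just inside the limit at 99.2 kb, and just outside it stood peaks 105 kb below Foxf1 (3.63-fold) and 110.2 kb above Foxl1 (6.27-fold).

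**Figure D2:**
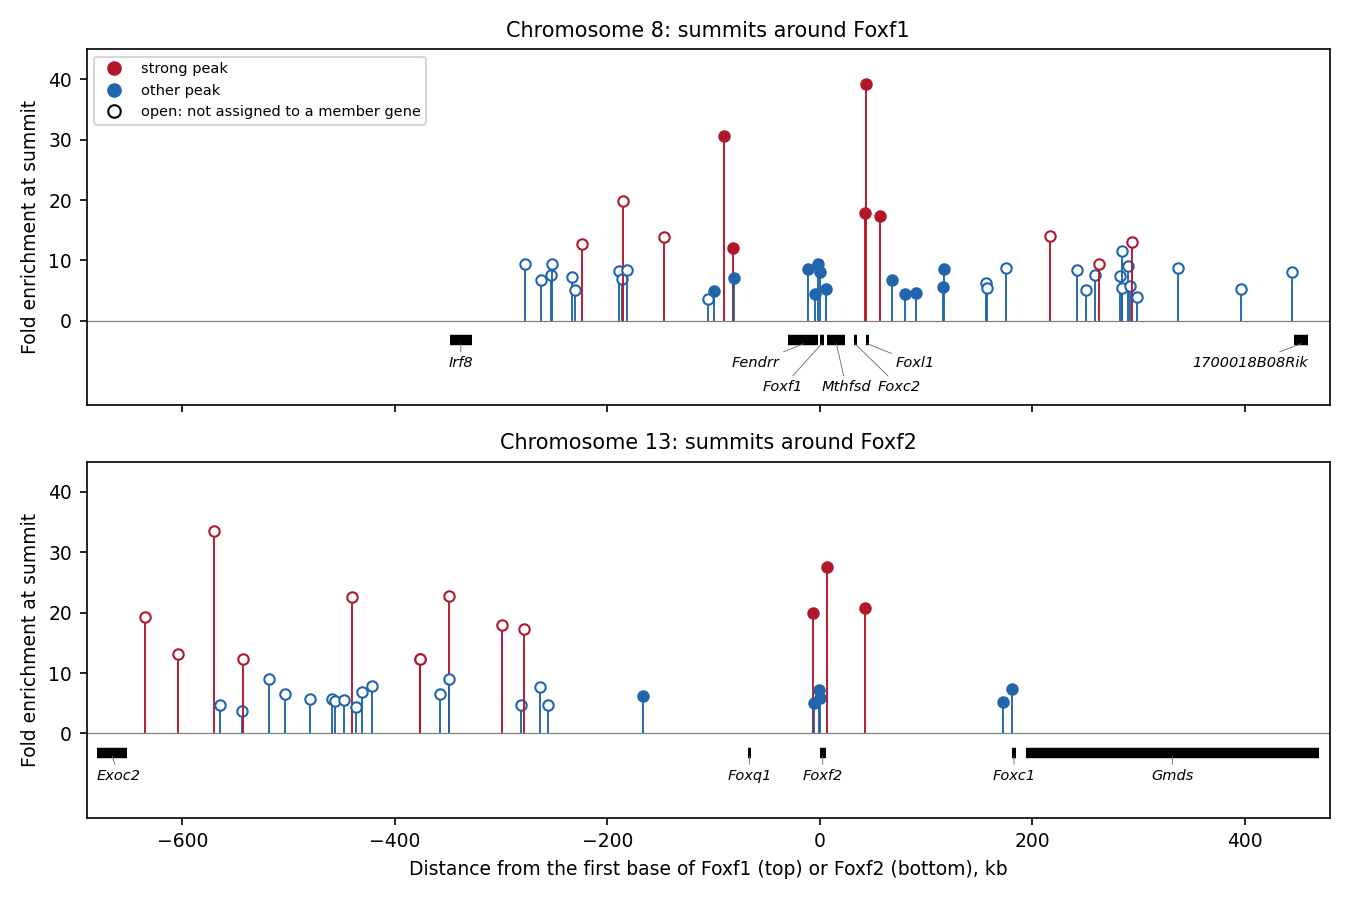
Fold enrichment of every peak between the flanking protein-coding genes (Irf8 to 1700018B08Rik on chromosome 8, Exoc2 to Gmds on chromosome 13), against distance from the first base of Foxf1 or Foxf2 in kb. Strong peaks are red and open circles are peaks not assigned to the 6 genes; the 5 strong assigned peaks on chromosome 8 lie at Foxl1 and 81.2 to 90.5 kb below Foxf1, and the 3 on chromosome 13 lie within 37 kb of Foxf2.

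Peaks lay at the ends of 4 of the 6 genes, and of these only those at Foxl1 were strong. Foxf1, Foxl1, Foxf2 and Foxc1 had a summit within 1 kb of an end (66.7% of genes, where 19.8% of protein-coding genes did), and Foxc2 and Foxq1 had none. Of the 26 peaks, 6 lay within 1 kb of an end (23.1%, exact 95% binomial interval 8.97 to 43.6%), and the share of assigned peaks that did was also 23.1%. The pair at Foxl1 was strong, and the other 4 end peaks, at Foxf1, Foxf2 and Foxc1, had folds from 5.81 to 8.01. The other 6 strong peaks stood over 1 kb from any end of a protein-coding gene. Both cutoffs were narrowly missed in places. The 27.5-fold peak of Foxf2 had its summit 1.15 kb from the last base, and the end peak of Foxf1 was rank 5286. Summits lay below the first base of the gene in 16 cases, above the last base in 9 and inside in 1.

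Assigned to the nearest protein-coding gene, the chromosome 8 cluster carried more peaks on a shorter stretch. Assigned to the nearest of all annotated genes, noncoding ones included, the order of the counts turned, with 5 peaks on chromosome 8 and 8 on chromosome 13, of which 3 were strong on each, and the ratio of densities was 2.54 (0.654 to 8.81). Its 17 peaks (exact 95% Poisson interval 9.90 to 27.2) fell in a territory of 224 kb, a density of 7.59 per 100 kb (4.42 to 12.2). The 9 peaks of the chromosome 13 cluster (4.12 to 17.1) fell in 357 kb, a density of 2.52 per 100 kb (1.15 to 4.79). The ratio of densities was 3.01, with an exact conditional binomial 95% interval of 1.27 to 7.67. With a limit of 50 kb it was 2.57 (0.942 to 7.37), and with peaks of at least 5-fold alone 2.3 (0.911 to 6.10), intervals that included 1. Over all protein-coding genes the density was 1.31 peaks per 100 kb, which lay below the interval of the chromosome 8 cluster and inside that of the chromosome 13 cluster. These intervals cover counting error only and treat peaks as independent, although neighbouring peaks can share a broad enriched stretch, and no p-value was computed from the peaks of 1 list.

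The strength of their peaks did not set the clusters apart. The median fold was 8.01 in the chromosome 8 cluster (exact 95% interval of the median 5.21 to 12.1) and 7.17 in the chromosome 13 cluster (5.18 to 20.7), so the intervals overlapped widely. Strong peaks made up 5 of 17 (29.4%, exact 95% binomial interval 10.3 to 56%) and 3 of 9 (33.3%, 7.49 to 70.1%). The density of strong peaks was 2.23 per 100 kb on chromosome 8 and 0.84 on chromosome 13, a ratio of 2.66 whose interval, 0.517 to 17.1, included 1. Within the limit of 100 kb, the peaks of chromosome 13 lay nearer to their genes. Their median distance to a gene end was 5.5 kb, with 2 of 9 over 10 kb away, where the median on chromosome 8 was 21.9 kb, with 11 of 17 over 10 kb away. At a limit of 1 Mb this order turned, with a median of 99.2 kb for 17 peaks on chromosome 13 and of 70 kb for 24 peaks on chromosome 8.

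Between the paralogues Foxf1 and Foxf2 the ratio of densities was lower than the 3.01 of the clusters, but its interval overlapped theirs (1.27 to 7.67) widely. Foxf1 had 8.53 peaks per 100 kb (3.90 to 16.2) and Foxf2 4.78 (1.75 to 10.4), a ratio of 1.79 with an interval of 0.568 to 6.10 that included 1. Foxc1 had 2.08 per 100 kb (0.252 to 7.52), and its paralogue Foxc2 had 0 in a territory too short for a comparison. The remaining genes were not compared as a pair of paralogues. Foxl1 had 7.45 per 100 kb (3.22 to 14.7) and Foxq1 0.739 (0.0187 to 4.12). In order of density the genes ran Foxf1, Foxl1, Foxf2, Foxc1, Foxq1 and Foxc2, and the intervals of neighbours in that order overlapped.

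**Figure D3:**
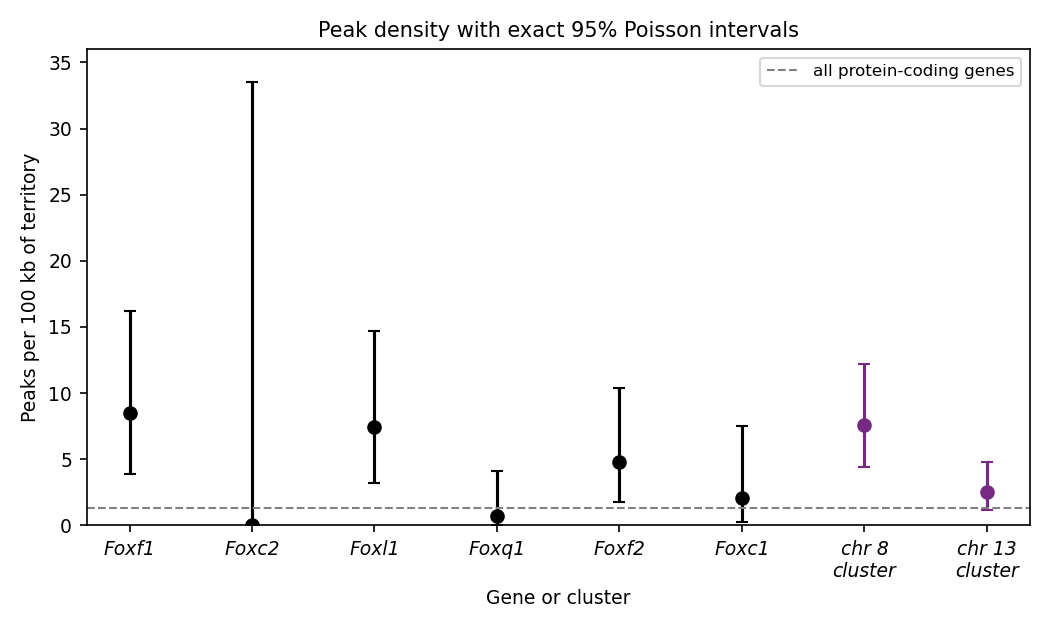
Peaks per 100 kb of territory for each of the 6 genes and for the 2 clusters, with exact 95% Poisson intervals that cover counting error only, and the density over all protein-coding genes (1.31) as a dashed line. The lower bounds of Foxf1, Foxl1, Foxf2 and the chromosome 8 cluster lie above the dashed line, and the wide bar of Foxc2 comes from its territory of 11 kb.

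The limit of 100 kb left out many peaks of the gene-poor stretches around both clusters. From the end of Irf8 to the start of Foxf1, 328 kb, there were 21 peaks, 5 of them strong, and 8 of the 21 had been assigned to Foxf1. The 3 strong peaks beyond the limit lay 147 kb (13.9-fold), 185 kb (19.8-fold) and 224 kb (12.8-fold) below Foxf1. Foxf1 was the nearest protein-coding gene for the first of these, and Irf8 for the others, at 143 and 104 kb. Above Foxl1, over 400.1 kb to 1700018B08Rik, there were 24 peaks, 4 of them strong, including peaks of 14-fold 171 kb and of 13-fold 247 kb from Foxl1.

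On chromosome 13 the stretch of 584 kb between Exoc2, a gene of the exocyst complex, and Foxq1 held 27 peaks, 10 of them strong, of which 1 weak peak was assigned to Foxq1. The highest, at chr13:31055122-31056493 (33.5-fold, −log10 q 94.2), lay 81.8 kb from Exoc2 and 502 kb from Foxq1. Peaks of 22.7, 17.9 and 17.3-fold lay 282, 231 and 211 kb below Foxq1. Between Foxf2 and Foxc1, 175 kb held 3 peaks, 2 of them strong. The density there was 1.71 per 100 kb (0.353 to 5), against 4.62 (3.05 to 6.73) between Exoc2 and Foxq1, and the intervals overlapped. The 8.95 kb between Foxc1 and Gmds held 0, with an interval up to 41.2 per 100 kb. Over the whole stretch between flanking genes, chosen after the data were seen, chromosome 8 had 48 peaks in 774 kb (6.2 per 100 kb, 4.57 to 8.22) and chromosome 13 had 35 in 845 kb (4.14 per 100 kb, 2.88 to 5.76). The ratio was then 1.5, with an interval of 0.949 to 2.39 that included 1, and strong peaks numbered 11 and 13.

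Of the 7 protein-coding genes listed beside the clusters, 6 (85.7%) had an assigned peak, where 39.8% of all protein-coding genes did, and Mthfsd had 0. The list left out 1700018B08Rik, the flanking gene above Foxl1. Irf8 had 7, up to 9.48-fold, and Irf4, on the far side of Exoc2, had 1 of 11.3-fold; both encode regulators of immune cell development. Exoc2 had 5 peaks, 4 of them strong, and Hus1b, which lies inside it, had 1 of 6.6-fold. Gmds, which encodes an enzyme of fucose synthesis, had 4 assigned peaks up to 5.98-fold, but 9 summits lay inside its long body, 2 of them strong and the highest of 34.9-fold. Fbxo31 had 1 peak of 6.01-fold. Fendrr had 2 summits inside it and 1 within 1 kb of an end, all of which are among the peaks already counted at Foxf1.

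Foxl1, Foxf1 and Foxf2 held the 3 highest peaks by −log10 q of the 44 forkhead genes examined, with values of 152, 96.4 and 77.4. The place of Foxf1 rests on its peak 90.5 kb away, since its peaks within 11 kb reached a −log10 q of 20.6 at most. Of the 38 forkhead genes outside the clusters, all matched in the gene table, 19 (50%) had a peak and 8 (21.1%) a strong peak, where 39.8% and 10.9% of all protein-coding genes did. Their median was 0.5 peaks, against a median of 4 over the 6 genes and 0 over all protein-coding genes. The highest among them were at Foxp4 (−log10 q 58.3, 14.2-fold), Foxj3 (55.4, 18.6-fold), Foxa2 (48.7, 20.7-fold), Foxp2 (44.3, 16.0-fold) and Foxo6 (29.4, 13.2-fold). Foxa2 is a factor of endoderm and lung epithelium, and Foxp2 and Foxp4 act in lung epithelium too. By number of peaks inside the gene or nearest to its ends, Foxp1 (29), Foxp2 (11) and Foxk1 (10) stood above Foxf1 (9), Foxp4 had 8 like Foxl1, Foxn3 had 7, and Foxo1 and Foxo6 had 5 each. By nearest end alone Foxp1 had 15, Foxp2 8 and Foxn3 4, and the territory by nearest end was 349.6 kb for Foxp1 and 154 kb for Foxk1, against 106 kb for Foxf1. Foxp1 had 3 strong peaks, as many as Foxl1 and Foxf2. Foxc1 and Foxq1 ranked 14 and 19 of the 44 by −log10 q.

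**Figure D4:**
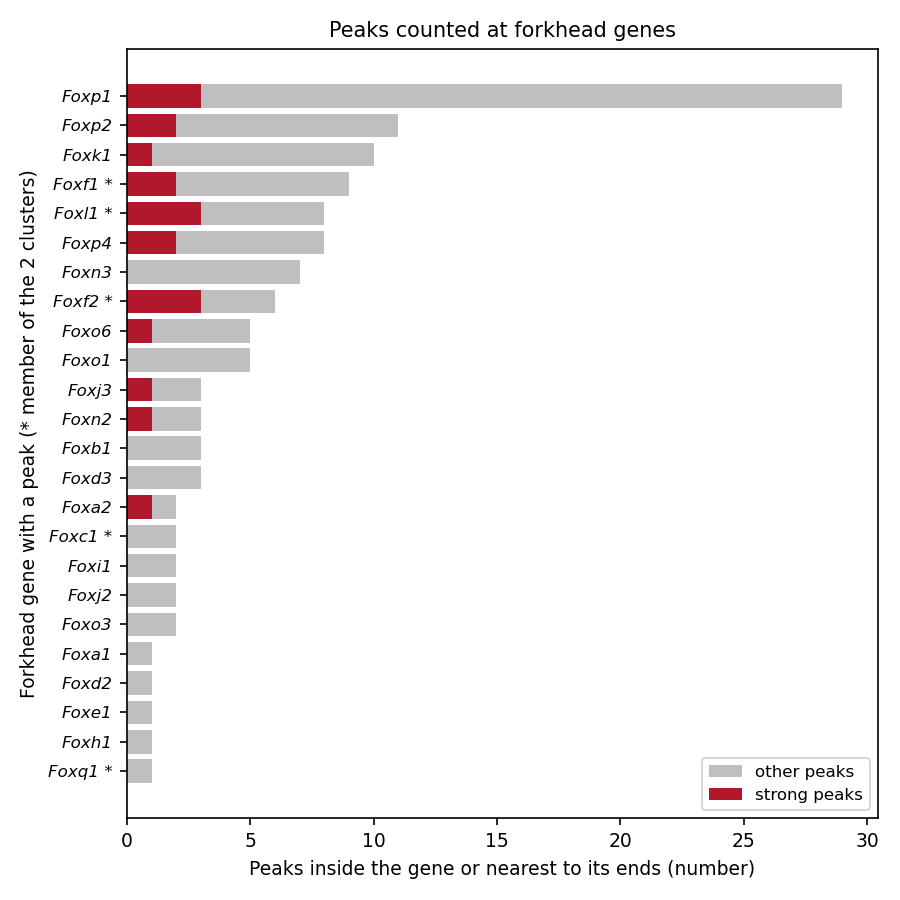
Number of peaks inside the gene or nearest to its ends, within 100 kb, for each forkhead gene with at least 1 peak, strong peaks in red and others in grey, with asterisks at the genes of the 2 clusters. Foxl1, Foxf2 and Foxp1 each have 3 strong peaks and Foxf1 has 2, while Foxp1 has 29 peaks in all; Foxc2 and 19 other forkhead genes with 0 peaks are not drawn.

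The hedgehog pathway, which induces Foxf1 and Foxl1, was described by a list of 11 genes. Counted by nearest end alone, 8 of these (72.7%) had a peak and 6 (54.5%) a strong peak, where 39.8% and 10.9% of all protein-coding genes did. The receptor gene Ptch1 (22 peaks), and Gli2 (15) and Gli3 (6), which encode the transcription factors of the pathway, had the most, with territories of 171, 374 and 400.0 kb. The ligand genes Shh, Ihh and Dhh had 0 peaks each.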

How the data were processed

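TBX5 ChIP-seq of whole fetal lung was represented by 1 deposited list of 28381 peaks. Per the submitters' processing notes, Bowtie2, SAMtools and MACS2 were used with build mm10; not given in the sources used here are versions, settings, any pooling of libraries and the use of the input as control. The list has no header, so units come from the MACS2 layout and the values. For each peak the authors deposited a fold enrichment (a ratio of ChIP to local background at the summit), the −log10 of a q-value, a summit offset in bp, and a score. The score deposited by the authors was the integer part of 10 times the −log10 q in 98.8% of peaks and at most 1 away in the rest. The list's name says that blacklisted regions were removed, and 23 peak numbers were absent. The score was compared only with the −log10 q, and the deposited −log10 of a p-value was not used.

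Starts are 1-based. Summits were assigned with Python 3.11.15, numpy 2.4.6 and pandas 2.3.3 to the nearest end of 21631 protein-coding RefSeq genes (GRCm38.p6), within 100 kb, or to a member gene around them. Territory is the number of bases so assigned. Counts carry exact 95% Poisson intervals and shares exact 95% binomial (Clopper-Pearson) intervals (scipy 1.17.1), which cover counting error only. The assignment and interval code was tested on simulated data. Depth is unknown, and a fold over background depends on it. No test was made, since the list has no values per library. Protein sequences were not used here, so the planned comparison of paralogous proteins was not made. Named were all 6 genes and every gene of the list beside the clusters. Also named were the other forkhead genes with the 5 highest −log10 q or the most peaks, and the hedgehog genes with the most or 0 peaks. Stretches beyond 100 kb, further peaks, 5033426O07Rik, Gm33579 and Foxn3 were chosen after their values were seen. So were the counts of peaks inside the other forkhead genes and the distances at 1 Mb. The genes and lists were chosen with earlier results of these data known.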

Additional observations from a re-analysis of the deposited data

How the results depend on the processing

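Of 124 values recomputed under alternatives, 102 stayed within 1.5 times the reported count or inside the reported interval. The midpoint, nearest gene body and nearest end settings returned the same values throughout, which adds to that number. Wide intervals add to it too. A median fold of 13.6 on chromosome 13 (main 7.17) and a density ratio of 1.5 (main 3.01) counted as staying. The search for the forkhead core was counted as an alternative of the T-box search. A reversal was looked for in the density ratio alone, which stayed above 1 in all 11 alternatives. The order of the cluster counts did turn with all annotated genes. With a limit of 50 kb the chromosome 8 cluster had 11 peaks, including 3 strong peaks. At a limit of 1 Mb the chromosome 13 cluster had 17 peaks, 6 of them strong. With all annotated genes the chromosome 8 cluster had 5 peaks, 3 of them strong, with a median fold of 17.3, against 8 peaks on chromosome 13. With the 14190 peaks of highest −log10 q it had 11. Strong peaks defined as the 1000 highest numbered 2 on chromosome 8 and 1 on chromosome 13, and as the 14190 highest 11 and 6. The density ratio ran from 1.5 to 3.01 over 11 alternatives, of which 2 were added after the data were seen. Its interval stayed above 1 in 5 of them. Those 5 include the midpoint, nearest gene body and nearest end settings, which only returned the main ratio and interval. The others were the limit of 1 Mb (1.03 to 3.96) and summits within 1 kb counted as 1 (1.19 to 8.14). The interval included 1 with 50 kb, all annotated genes, the 14190 highest peaks and peaks of at least 5-fold. It also included 1 with 100 kb around the Foxf genes alone and with the whole stretches. Of single genes, 10 counts moved, among them Foxq1 (0 to 9 peaks), Foxl1 (3 to 13) and Foxf1 (down to 2), while Foxc2 stayed at 0. No paired analysis was possible because the result comes from no test and the list has no columns per library; for the same reason no library could be left out. Depth sets which weak peaks were called, by an amount that is unknown here.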

Other observations

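A strong peak stood at nearly the same distance above the first base of the Foxf gene in both clusters, a match noticed after the positions had been seen and not tested. On chromosome 8 the summits of the Foxl1 doublet lay 42.4 and 43.2 kb above the first base of Foxf1, and on chromosome 13 the summit of 20.7-fold lay 42.6 kb above that of Foxf2. The former lie at the end of a gene and the latter in the stretch between Foxf2 and Foxc1, where no protein-coding gene is annotated.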
